A study of Mus musculus with 4 samples.

Results

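The genes described here are 10 that bring glucose into a cell and through the first and branch steps of glycolysis: Slc2a4, Slc2a1, Hk1, Hk2, Pfkl, Pfkp, Pfkfb3, Pdha1, Pdk4 and Ldha. They were chosen by symbol, and all 10 are among the 32285 genes of the feature tables. Single-nucleus RNA came from WT, naïve males aged 4 months, in 1 library of 6 pooled thymi of C57/BL6 animals on standard chow and 1 library of epigonadal white fat, for which the sources used here give neither the number of animals nor their strain and diet. Chromatin accessibility (ATAC, which marks open DNA by where a transposase cuts it) came from a multiome library of 16 pooled thymi of WT, naïve C57/BL6 females aged 6 months, also on chow. Thymi were freed of the fat attached to the capsule and digested, and nuclei were taken from the layer of cells that floats. Each group is 1 library, so no difference below has a replicate check, no test was made, and every interval is a 95% interval of counting error alone.

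Levels are raw UMIs (counted RNA molecules) summed over the nuclei of one of the authors' labels and given per 1000000 nuclear-encoded UMIs of that sum (CPM). The thymic library held 22600 barcodes, of which 365 carry a label, and the epigonadal library 5043, of which 1564 do. No labelled barcode was shared by the libraries, although 147 barcodes in all were. Ad I, meaning labels Ad Ia and Ad Ib together, had 84 thymic nuclei with 52241 UMIs and 258 epigonadal nuclei with 263848. Ad IIa had 231 with 401448 and 590 with 1237126, and Ad IIc had 34 and 658. Thymic nuclei held more mitochondrial RNA, with a median of 17.3% against 4.52% in Ad I and 13.3% against 4.63% in Ad IIa. Adipocyte markers were detected in Ad I of both libraries, 10 of 11 in the thymic one (8805 CPM summed, with Lep at 0) and 11 of 11 in the epigonadal one (15126 CPM). Endothelial markers were at 1225 and 1095 CPM in Ad I, but 8656 and 6640 CPM in Ad IIa, where all 10 were detected in each library. In Ad IIa the adipocyte markers summed to 11638 and 23127 CPM. T cell markers were at 459 and 53.1 CPM in Ad I and 130 and 1.62 in Ad IIa, and erythroid markers reached 25948 CPM in thymic Ad IIc. What these other markers contribute to the values below was not tested. The labels may have been drawn from the same counts, so differences between labels describe the annotation.

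Insulin moves GLUT4, the product of Slc2a4, to the surface of fat and muscle cells, while GLUT1, from Slc2a1, is a general transporter. Hexokinases trap the sugar by phosphorylating it, and phosphofructokinase then commits it to glycolysis under the control of the activator that PFKFB3 makes. The pyruvate formed either enters the mitochondrion through pyruvate dehydrogenase, which the kinase PDK4 switches off when fat is burned, or becomes lactate through LDHA.

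Of the 2 member transporters, Slc2a4 was the one seen in Ad I of both libraries. It had 7 UMIs in the 84 thymic nuclei and 9 in the 258 epigonadal nuclei, or 134 CPM (53.9 to 276) and 34.1 CPM (15.6 to 64.8). In Ad IIa the order was the other way, with 0 of 401448 UMIs in the thymic library, which allows up to 7.47 CPM at 3 counts, and 21 UMIs or 17.0 CPM (10.5 to 25.9) in the epigonadal library. The highest epigonadal level was in Ad IIc, at 31 UMIs and 60.1 CPM (40.8 to 85.2), which overlaps epigonadal Ad Ia at 48.7 CPM (19.6 to 100). The thymic level was thus higher in Ad I, by 2.0 on the log2 scale (0.31 to 3.57), and in Ad IIa the epigonadal level was at least 2.27-fold higher, a bound from 3 thymic counts that leaves out the counting error of the epigonadal level. With that error the log2 interval ends at -0.76. Slc2a1 had at most 3 UMIs in any single label of either library, and over all labelled nuclei 4 thymic and 8 epigonadal UMIs, so a difference in it was not detectable at this depth.

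Hk2, the hexokinase of insulin-sensitive tissue, was far higher in Ad I than in Ad IIa of both libraries. Its UMIs were 9 in thymic Ad Ia and 20 in thymic Ad Ib, and 59 and 35 in the epigonadal labels. In order of level these were thymic Ad Ib at 814 CPM (497 to 1257), epigonadal Ad Ia at 411 (313 to 530), thymic Ad Ia at 325 (149 to 618) and epigonadal Ad Ib at 291 (203 to 405). The highest is separate from epigonadal Ad Ib by its interval, and the others overlap. Ad IIa had 4 thymic UMIs at 9.96 CPM (2.71 to 25.5) and 52 epigonadal UMIs at 42.0 CPM (31.4 to 55.1). Epigonadal Ad IIc, at 219 CPM (180 to 263), lay between. A UMI of Hk2 was seen in 25 of 84 thymic and 62 of 258 epigonadal Ad I nuclei, against 3 of 231 and 45 of 590 in Ad IIa. Where each nucleus was thinned to 500 UMIs the Ad I shares were 18.5% of 42 thymic and 13.1% of 258 epigonadal nuclei, against 0.395% and 1.73% in Ad IIa, with 42 thymic Ad I nuclei too shallow to enter. A background share of UMIs, estimated from T cell markers against the profile of all unlabelled barcodes, was 10.9% in thymic and 20.7% in epigonadal Ad I, against 3.06% and 0.631% in Ad IIa. That profile is not one of free RNA alone, since 994 of the thymic barcodes in it held at least 3 T cell markers. The epigonadal estimates rest on 14 T cell marker UMIs in Ad I and 2 in Ad IIa. The part of background in the shares of nuclei was not tested.

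Hk1, the widely expressed hexokinase, followed the opposite order in the epigonadal library, with intervals that overlap. It had 7 UMIs in Ad I at 26.5 CPM (10.7 to 54.7) and 70 in Ad IIa at 56.6 CPM (44.1 to 71.5). Thymic Ad I held 1 UMI and thymic Ad IIa 18 (44.8 CPM). Hk2 made up 29 of 30 Hk1 and Hk2 UMIs in thymic Ad I, 96.7% (Clopper-Pearson 82.8% to 99.9%), but 4 of 22 in thymic Ad IIa, 18.2% (5.19% to 40.3%). In the epigonadal library the share was 94 of 101 in Ad I, 52 of 122 in Ad IIa and 113 of 117 in Ad IIc, or 93.1%, 42.6% and 96.6%. These shares are compared between labels only, since transcripts of different genes differ in length. The antisense gene Hk1os overlaps Hk1, and the sources used here do not say whether strand was used in counting.

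**Figure D1:**
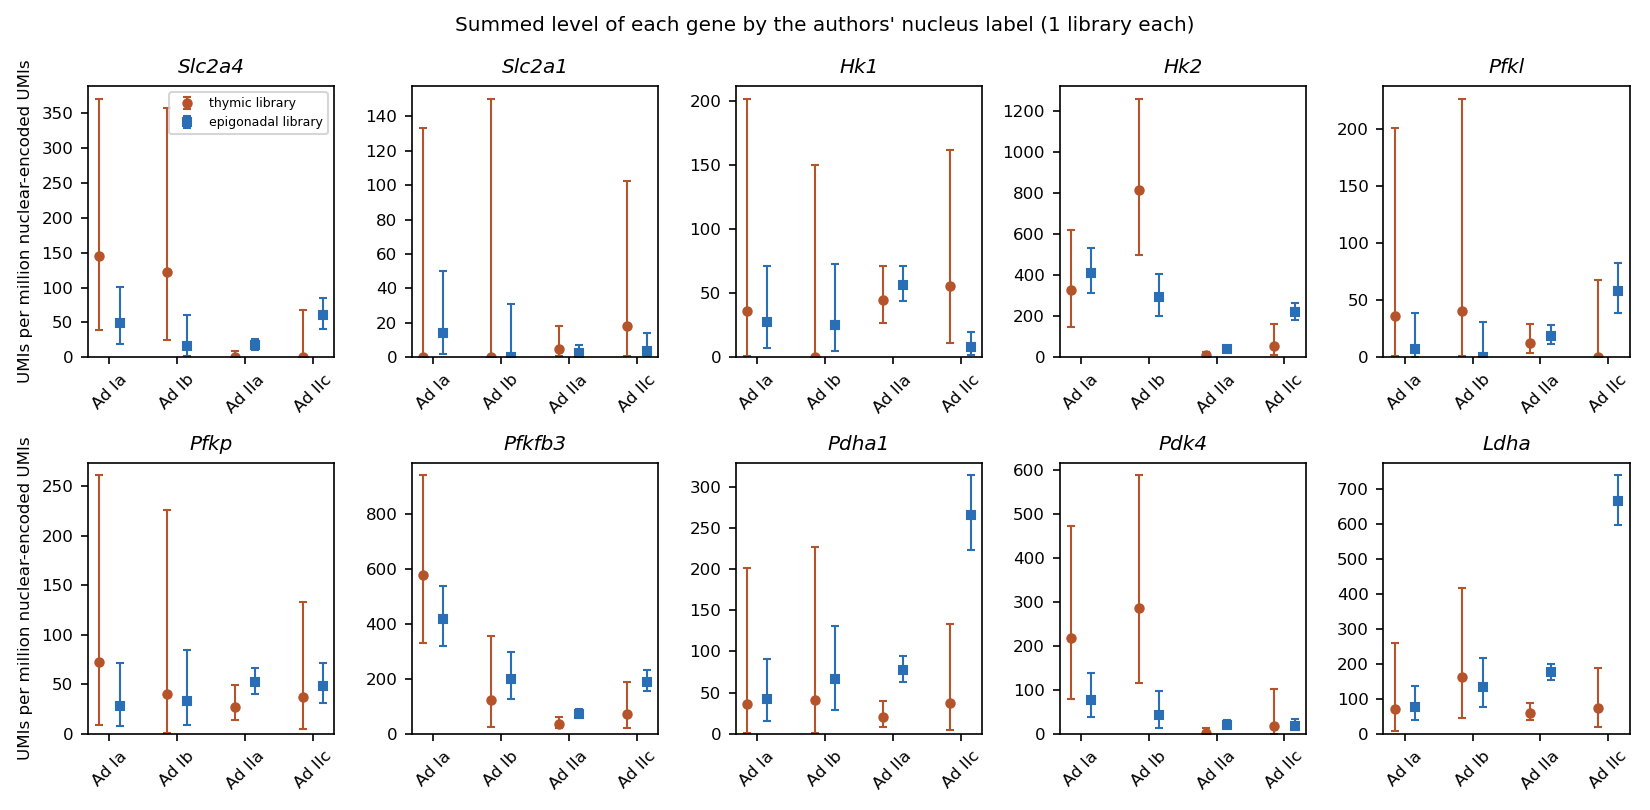
Level of each of the 10 genes (CPM, linear axes) in 4 of the authors' labels, thymic library as circles and epigonadal library as squares, with 95% Poisson intervals. Hk2, Pfkfb3 and Pdk4 are lower in Ad IIa than in Ad Ia and Ad Ib of both libraries, and Ldha is highest in epigonadal Ad IIc at 666. The intervals of Ad Ib and Ad IIa overlap for thymic Pfkfb3 and for epigonadal Pdk4.

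At the phosphofructokinase step, Pfkfb3, which makes the activator of the enzyme, was higher in Ad Ia than in Ad Ib of both libraries, in the epigonadal one by a ratio just past 2-fold that some settings put under it. It had 16 UMIs in thymic Ad Ia (578 CPM, 331 to 939) and 3 in thymic Ad Ib (122 CPM, 25.2 to 357). In the epigonadal library it had 60 (418 CPM, 319 to 538) and 24 (200 CPM, 128 to 297). Ad IIa was at 37.4 CPM (20.9 to 61.6) thymic and 72.7 CPM (58.5 to 89.4) epigonadal, below both Ad I labels except that the thymic interval overlaps that of Ad Ib. Of the Pfkfb1 to Pfkfb4 UMIs, Pfkfb3 held 19 of 35 in thymic Ad I and 84 of 131 in epigonadal Ad I, 54.3% (36.6% to 71.2%) and 64.1% (55.3% to 72.3%). The enzyme's own subunits were sparse. Pfkp, the platelet-type subunit, had 3 thymic and 8 epigonadal UMIs in Ad I and 11 and 65 in Ad IIa. Pfkl, the liver-type subunit, had 2 and 1 in Ad I and 30 in epigonadal Ad IIc, where it was at 58.1 CPM (39.2 to 83.0). In that label Pfkp made up 25 of the 55 UMIs of both subunits, against 65 of 88 in epigonadal Ad IIa.

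Pdk4, the kinase that shuts pyruvate dehydrogenase in fasted and fat-burning tissue, was, with Slc2a4, one of the members at least 2-fold apart between the libraries in Ad I. It had 6 and 7 UMIs in thymic Ad Ia and Ad Ib and 11 and 5 in the epigonadal labels. Levels were 217 and 285 CPM in the thymic labels and 76.6 and 41.6 CPM in the epigonadal ones, and 249 CPM (133 to 426) against 60.6 CPM (34.7 to 98.5) over Ad I. In Ad IIa the thymic library held 1 UMI and the epigonadal library 26, or 21.0 CPM (13.7 to 30.8). A UMI was seen in 12 of 84 thymic Ad I nuclei and in 1 of 231 thymic Ad IIa nuclei, against 13 of 258 and 24 of 590 epigonadal ones. At 500 UMIs a nucleus the Ad I shares were 15.0% and 2.96%. Among the 4 Pdk genes, Pdk4 held 13 of 19 UMIs in thymic Ad I, 68.4% (43.4% to 87.4%), and 16 of 38 in epigonadal Ad I, 42.1% (26.3% to 59.2%). In thymic Ad IIa it held 1 of 24, where Pdk1 had 14.

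Pdha1, the catalytic subunit that PDK4 acts on, had 2 thymic UMIs in Ad I and 8 in Ad IIa, against 14 and 96 epigonadal ones. Its highest level was in epigonadal Ad IIc, at 137 UMIs and 265 CPM (223 to 314). Ldha, the lactate dehydrogenase subunit of glycolytic tissue, was also highest there, at 344 UMIs and 666 CPM (598 to 741). In Ad IIa, Ldha was at 59.8 CPM (38.3 to 89.0) in the thymic and 176 CPM (154 to 201) in the epigonadal library. In Ad I it had 6 and 27 UMIs, or 115 and 102 CPM.

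**Figure D2:**
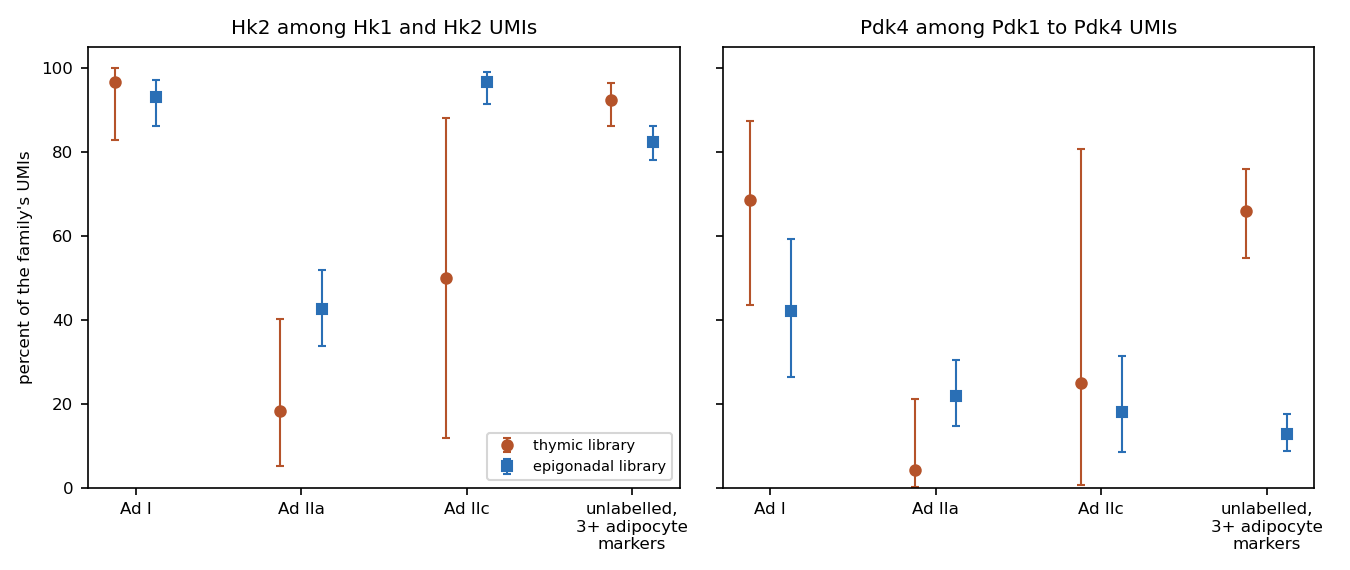
Percent of UMIs held by Hk2 among Hk1 and Hk2 (left) and by Pdk4 among Pdk1 to Pdk4 (right), by label, with exact 95% binomial intervals, circles for the thymic and squares for the epigonadal library. Hk2 holds 96.7% and 93.1% in Ad I of the libraries, and 18.2% and 42.6% in Ad IIa.

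Set side by side in Ad I, 7 of the 10 genes had at least 10 UMIs over both libraries, and 3 of these were at least 2-fold higher in the thymic one and 0 at least 2-fold lower. Of all 5346 genes compared there, 15.2% were at least 2-fold higher and 17.0% at least 2-fold lower. Pdk4 was higher by 2.05 on the log2 scale (0.86 to 3.19), Slc2a4 by 2.0 and Pfkp by 1.06 (-1.63 to 2.98). Each of the 3 rests on 11 to 29 UMIs, and among Ad I genes with 10 to 29 UMIs the shares were 17.4% higher and 20.2% lower. The interval of Pfkp holds 0, and with TMM scaling its value was 0.72. Hk2 was 0.66 higher (-0.01 to 1.25), but at -0.30 with nuclei of at least 1000 UMIs. Pfkfb3 at 0.22 (-0.61 to 0.92) and Ldha at 0.26 (-1.40 to 1.47) turned to -0.12 and -0.08 with TMM scaling, which shifts every Ad I value by -0.34. With nuclei of at least 1000 UMIs, which leaves 9 thymic and 79 epigonadal Ad I nuclei, 1 member was past 2-fold, Pdk4 at 1.67. Thymic Ad I nuclei were shallower, with a median of 500.5 UMIs against 744.5, held more mitochondrial RNA and had T cell markers at 459 against 53.1 CPM, and the part of these in the differences was not tested.

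In Ad IIa, 9 of the 10 genes had at least 10 UMIs, 0 were at least 2-fold higher in the thymic library and 5 at least 2-fold lower. Of 9775 genes, 5.44% were higher and 16.2% lower by that measure. The 5 were Slc2a4, with 0 thymic UMIs, Pdk4 at -2.52 (-8.43 to -0.47), Hk2 at -1.92 (-4.01 to -0.63), Pdha1 at -1.88 (-3.21 to -0.93) and Ldha at -1.53 (-2.23 to -0.95). With 5 UMIs added in place of 0.5, Slc2a4 and Pdk4 were under 2-fold, both at -0.75. Hk1 differed by -0.31 (-1.17 to 0.43), Pfkl by -0.47 (-2.33 to 0.85), Pfkp by -0.89 (-2.01 to -0.01) and Pfkfb3 by -0.92 (-1.86 to -0.16). The median of the 9 was -1.53 on the log2 scale, or -1.18 with Slc2a4 at its bound, beside -0.02 over all genes. Adipocyte markers in Ad IIa summed to 11638 CPM in the thymic and 23127 CPM in the epigonadal library, and the part of this in the 5 differences was not tested.

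**Figure D3:**
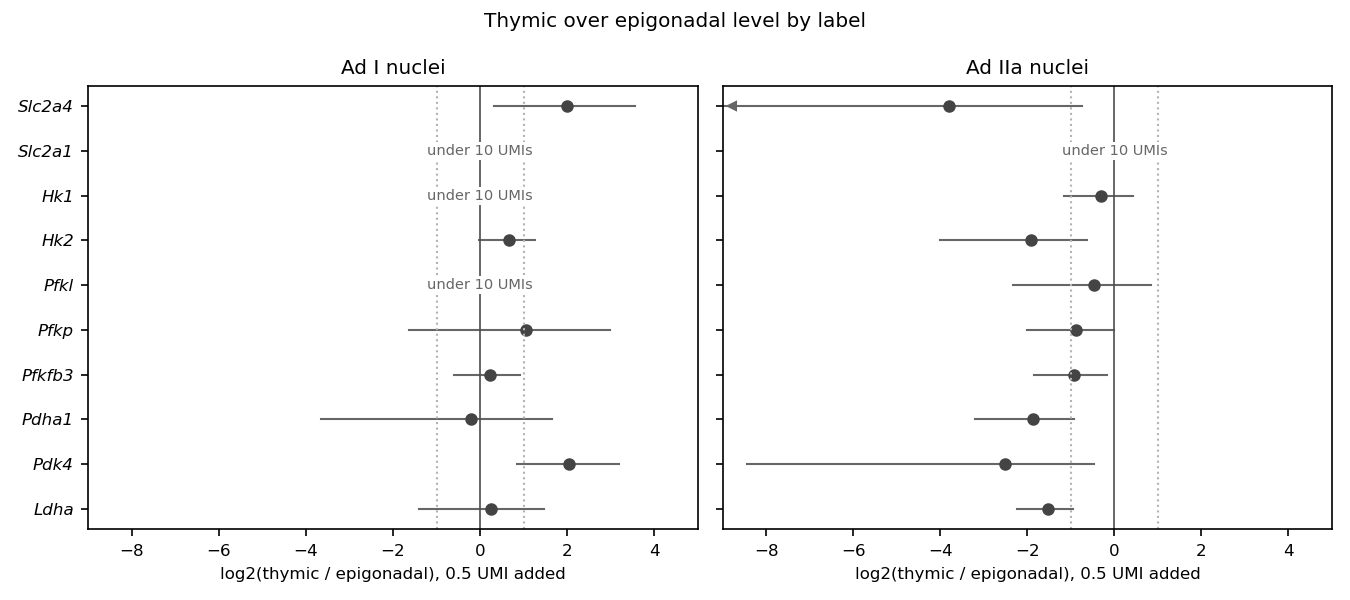
Log2 ratio of thymic over epigonadal level with 0.5 UMI added, in Ad I (left) and Ad IIa (right), with exact 95% intervals of the split of UMIs. Dotted lines mark 2-fold, an arrow an interval without a lower end. Pdk4 and Slc2a4 lie at 2.05 and 2.0 in Ad I and below 0 in Ad IIa.

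Over all labelled nuclei, 1 member was at least 2-fold higher in the thymic library and 3 at least 2-fold lower, beside 8.12% and 20.2% of 11306 genes. Pdha1 was lower by 2.21 on the log2 scale, at 24.3 against 117 CPM, and Ldha by 2.0, at 69.2 against 280 CPM. Slc2a4 was lower at -1.02 (-2.49 to 0.02) and Slc2a1 higher at 1.09 (-1.17 to 2.91), and both intervals hold 0. With TMM scaling Slc2a1 was no longer past 2-fold, and the split became 0 higher and 4 lower. This sum mixes labels in different parts, since Ad IIc is 34 of 365 thymic and 658 of 1564 epigonadal nuclei. With equal weight per nucleus Slc2a4 turned to 0.26, Hk2 from -0.85 to 0.24, and Pdk4 moved from 0.28 to 1.80. With nuclei of at least 1000 UMIs, Pdk4 was at -1.36. Adipocyte markers over all labelled nuclei were at 11866 CPM in the thymic and 31512 CPM in the epigonadal library, endothelial ones at 7860 and 4609 CPM and erythroid ones at 3082 and 249 CPM. Their part in these differences was not tested.

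Within the thymic library, Ad IIa against Ad I gave 0 of 7 members at least 2-fold higher and 6 at least 2-fold lower, beside 28.2% and 20.2% of 6095 genes. On the log2 scale Pdk4 was at -6.11 (-12.1 to -3.91), Hk2 at -5.65 (-7.77 to -4.29) and Pfkfb3 at -3.27 (-4.36 to -2.23). Slc2a4 had 0 UMIs in Ad IIa against 7 in Ad I, under the minimum. Pfkp, Pdha1 and Ldha were at -1.23, -1.18 and -1.03 with intervals that hold 0, and with TMM scaling, a shift of 0.41, the split was 1 higher and 3 lower. In the epigonadal library 2 of 9 members were higher, Hk1 at 1.0 (-0.03 to 2.46) and Pfkl at 1.74 (-0.33 to 7.66) with intervals that hold 0, and 4 lower, beside 19.8% and 17.5% of 10064 genes. The lower ones were Hk2 at -3.08 (-3.60 to -2.58), Pfkfb3 at -2.13 (-2.57 to -1.68), Pdk4 at -1.55 (-2.48 to -0.53) and Slc2a4 at -1.05 (-2.19 to 0.30), which TMM scaling put at -0.90, under 2-fold. Hk2, Pfkfb3 and Pdk4 were thus at least 2-fold lower in Ad IIa in each library. In the thymic library Hk2 and Pdk4 had too few UMIs to count when nuclei of at least 1000 UMIs were used, and Pdk4 also under a minimum of 20 UMIs. Endothelial markers moved with this comparison, at 1225 CPM in thymic Ad I and 8656 CPM in thymic Ad IIa, and their part in it was not tested.

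Between the Ad I labels, thymic Ad Ib against Ad Ia had 3 members to compare. Hk2 was higher in Ad Ib by 1.28 (0.12 to 2.64) and Pfkfb3 was at -2.07 (-4.67 to -0.44), beside 13.6% of 1022 genes at least 2-fold higher and 15.4% lower. In the epigonadal library Pfkfb3 was at -1.05 (-1.81 to -0.36) and was the 1 of 5 members past 2-fold, beside 9.38% higher and 9.97% lower of 4763 genes, and Hk2 was at -0.49 (-1.14 to 0.13). The Pfkfb3 value was just past 2-fold, and was under it at -0.96 without Gm42418, AY036118 and Malat1 in the scaling, at -0.99 with nuclei of at least 1000 UMIs and at -0.91 with 5 UMIs added. Markers of other cells moved with the thymic comparison: endothelial ones summed to 72.3 CPM in Ad Ia and 2522 CPM in Ad Ib, and T cell ones to 289 and 651 CPM. Adipocyte markers were at 10557 and 6834 CPM there, and endothelial ones in the epigonadal library at 627 and 1655 CPM. Their part in these differences was not tested. Epigonadal Ad IIc against Ad I gave 3 of 9 members higher and 2 lower, beside 24.3% and 37.5% of 8154 genes. The higher ones were Ldha by 2.68 (2.14 to 3.33), Pdha1 by 2.28 (1.53 to 3.23) and Pfkl by 3.38 (1.35 to 9.29). The lower ones were Pdk4 at -1.76 (-3.16 to -0.53) and Hk1 at -1.71 (-4.00 to 0.20), whose interval holds 0. Adipocyte markers moved with this comparison, at 65401 CPM in epigonadal Ad IIc and 15126 CPM in Ad I, as did endothelial ones at 432 and 1095 CPM, and their part in it was not tested. In the thymic library Ad IIc, 34 nuclei, against Ad I gave 0 of 4 members higher and 3 lower, Hk2 at -3.13 (-5.69 to -1.64), Pfkfb3 at -2.17 (-4.32 to -0.71) and Pdk4 at -3.22 (-9.16 to -1.02), beside 29.6% and 25.9% of 2285 genes. Between the libraries, thymic over epigonadal Ad IIc gave 0 of 8 members higher and 6 lower, beside 32.7% and 32.0% of 6481 genes. Ldha at -3.01 (-5.06 to -1.81), Pdha1 at -2.53 (-5.91 to -0.97) and Hk2 at -1.77 (-4.28 to -0.40) had intervals below 0, and those of Slc2a4, Pfkl and Pfkfb3 hold 0. Thymic Ad IIc held adipocyte markers at 18687 CPM, endothelial ones at 7685 CPM and erythroid ones at 25948 CPM, the last against 393 CPM in epigonadal Ad IIc and 517 CPM in thymic Ad I, and their part in it was not tested.

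Most thymic UMIs of these genes lie in barcodes without a label. Epigonadal labelled nuclei held 58.0% (47.0% to 68.4%) of Pdk4 and 42.9% (38.9% to 46.9%) of Hk2 UMIs, beside 36.4% of all nuclear-encoded UMIs. Thymic labelled nuclei held 4.75% of Pdk4 and 7.14% of Hk2 UMIs of their library, where they hold 10.4% of all nuclear-encoded UMIs. Of the 10 members 8 were under that share and Hk1, at 12.3% (7.96% to 17.9%), and Slc2a1, at 11.1% (3.11% to 26.1%), were above it. A set of unlabelled barcodes with UMIs of at least 3 adipocyte markers, 664 thymic and 2525 epigonadal, was therefore looked at, a choice made after seeing the data. Pdk4 was at 149 CPM (113 to 194) in the thymic and 10.9 CPM (7.42 to 15.5) in the epigonadal set, a log2 ratio of 3.76 (3.12 to 4.46). Hk2 was at 294 against 109 CPM and Slc2a4 at 53.4 against 24.3 CPM. These were the 3 members at least 2-fold higher, and Slc2a1, with 1 against 24 UMIs, the 1 lower, beside 13.0% and 17.7% of 12461 genes. Over all unlabelled barcodes, 22235 thymic and 3479 epigonadal, 1 of the 10 members was at least 2-fold higher, Pdk4 at 65.4 against 9.79 CPM or 2.72 (2.24 to 3.27), and 1 lower, Ldha at -1.36 (-1.52 to -1.20), beside 11.1% and 22.4% of 14979 genes. There Hk2 was at 0.13 (-0.08 to 0.33), Slc2a4 at 0.52 (0.09 to 0.96) and Slc2a1 at -0.49 (-1.22 to 0.23). T cell markers in all unlabelled barcodes summed to 4233 against 256 CPM and adipocyte ones to 4867 against 25692 CPM. The median of mitochondrial RNA in these barcodes was 69.3% against 10.9%. What these contribute was not tested. In the sets with at least 3 adipocyte markers, Ldha was at 171 against 320 CPM. Thymic barcodes with at least 3 T cell markers held Pdk4 at 14.7 CPM and Hk2 at 38.5 CPM, and those with at least 3 endothelial markers held them at 23.5 and 6.71 CPM. Epigonadal barcodes with at least 3 endothelial markers held Pdk4 at 10.3 and Hk2 at 66.4 CPM. These marker sets are not exclusive, so a barcode can be in several of them, the adipocyte one included. Barcodes were sorted by the adipocyte, endothelial, T cell, skeletal muscle, fibroblast and macrophage lists, and not by the erythroid, mural or thymic epithelial ones. The 20345 thymic barcodes with 3 markers of none of the lists used, at a median of 299 UMIs, held most of the unlabelled UMIs of both genes. They had 231 of 301 for Pdk4, at 73.3 CPM, and 336 of 468 for Hk2, at 107 CPM. They also held 3150465 of the 4603069 nuclear-encoded UMIs of all unlabelled thymic barcodes. The 685 epigonadal barcodes of that kind held Pdk4 at 1.80 and Hk2 at 54.1 CPM. No unlabelled barcode of either library had 3 skeletal muscle markers. The thymic adipocyte-marker set had a median of 38.7% mitochondrial RNA, against 11.2% in the epigonadal one, and T cell markers at 1161 against 103 CPM. Its adipocyte markers were at 14371 against 33329 CPM, its erythroid ones at 1487 against 4698 CPM and its median depth at 493 against 780 UMIs. The part of these in the differences was not tested.

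The other 79 genes of the pathway were taken from 8 lists, and none of the counts below was tested against chance. In Ad I, 44 had at least 10 UMIs, 12 of them at least 2-fold higher in the thymic library and 7 lower, beside 15.2% and 17.0% of all 5346 genes, or 9 and 8 with TMM scaling. The median log2 ratio over the 44 was 0.51, against 0.08 over all genes. Among the regulators of uptake, Ppara, a nuclear receptor for fatty acids, was at 89 thymic against 74 epigonadal UMIs, which is 2.60 on the log2 scale (2.14 to 3.07), and Mlxipl, the glucose-sensing factor ChREBP, at 1.53 (0.86 to 2.16). Hif1a was at -1.57 (-7.49 to 0.51). In GLUT4 traffic 3 of 16 were higher, among them the GTPase gene Rhoq at 1.91 (0.99 to 2.79) and the adaptor gene Sh2b2 at 1.5 (0.27 to 2.60). Its 2 counted as lower were Stxbp3 at -1.22 (-4.63 to 0.46) and Stx4a, with 0 UMIs against 12. Of the other transporters 2 had enough UMIs, Slc2a13 at -2.20 (-4.73 to -0.82) and Slc2a3 with 0 UMIs against 15. The epigonadal levels of Stx4a and Slc2a3, 45.5 and 56.9 CPM, lie under the 57.4 CPM that 0 thymic UMIs allow, so a difference in either was not detectable at this depth. Of 6 lower glycolysis genes 3 were higher, Pkm at 1.51 (-0.26 to 3.02), Gpi1 at 1.42 (-0.85 to 3.24) and Pgam1 at 1.06 (-1.63 to 2.98), all with intervals that hold 0. The 1 lower was Gapdh, with 0 thymic and 25 epigonadal UMIs, at least 1.65-fold lower by the same kind of bound, with a log2 interval that ends at -0.32. In the pyruvate dehydrogenase list Dlat, its acetyltransferase subunit, was at 1.94 (0.50 to 3.29), and Pdhb was at -1.21 (-7.14 to 0.92). Of the 7 counted as lower, Slc2a13 and Gapdh had intervals below 0 and the other 5 had intervals that hold 0.

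In Ad IIa, 57 of the 79 had at least 10 UMIs, and 0 were higher and 20 lower in the thymic library, beside 5.44% and 16.2% of all 9775 genes. Their median was -0.58, or -0.48 with the genes at 0 UMIs at their bound, against -0.02 over all genes. By list, the lower ones were 6 of 19 in GLUT4 traffic, 4 of 8 in lower glycolysis, 4 of 10 in the pyruvate dehydrogenase list and 3 of 6 in lactate and pyruvate transport. Trarg1, of the GLUT4 traffic list, had 0 against 39 UMIs, and Irs1, the insulin receptor substrate, 0 against 32. Aldoa was at -2.31 (-3.15 to -1.64), Tpi1 at -2.09 (-3.69 to -1.02) and Mpc2, a mitochondrial pyruvate carrier subunit, at -1.19 (-1.94 to -0.57). Within each library Irs1, Mlxipl and Ppara were lower in Ad IIa than in Ad I. Irs1 had 0 UMIs in thymic Ad IIa and 18 in Ad I, and was at -3.84 (-4.48 to -3.27) in the epigonadal library. Mlxipl had 0 and 33 in the thymic library and was at -4.71 (-5.90 to -3.78) in the epigonadal one. Ppara was at -6.52 (-7.97 to -5.51) and -7.13 (-10.5 to -5.53). Epas1, a hypoxia factor that endothelial cells express, went the other way, at 1.5 (0.73 to 2.53) and 2.02 (1.61 to 2.49). Of the uptake regulators, 2 of 7 were at least 2-fold higher and 3 lower in thymic Ad IIa than in Ad I. In the epigonadal library 3 of 9 were higher and 3 lower. Over all lists 5 of 42 were higher and 22 lower in thymic Ad IIa, beside 28.2% and 20.2% of all genes. The epigonadal counts were 8 and 19 of 58, beside 19.8% and 17.5%.

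The genes most like each member over 12 sums (5 labels and the unlabelled barcodes of each library) were ranked by Pearson's r of log2(CPM + 10). The sums share libraries and depths, so r is a description. For Hk2 they included Fam13a (0.96) and Ankef1 (0.96), and for Slc2a4 they were Prkar2b (0.96), Aacs (0.95) and Acaca (0.94), and for Pdk4 Osbpl11 (0.91), Fam13a (0.91) and Clpx (0.90). Fam13a stands in the lists of both Hk2 and Pdk4. For Pfkfb3 they were Pmepa1 (0.96), Agpat3 (0.95) and Hacd2 (0.94), and for Ldha Gabarap (0.97), Atp5b (0.97) and Cox5a (0.93). Among members, r was 0.86 for Hk2 with Pfkfb3, 0.86 for Slc2a4 with Hk2, 0.88 for Slc2a4 with Pdk4 and 0.90 for Pdha1 with Ldha, and -0.10 for Pdk4 with Ldha.

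In the chromatin library, a gene's window was its body plus 2 kb beyond each end (GRCm38), and the fragments in it are given per 1000000 fragments of the nuclei in the set (FPM). The windows lie around Slc2a4 at chr11:69942286-69948216, Hk1 at chr10:62268855-62379920, Hk2 at chr6:82725025-82774454, Pfkfb3 at chr2:11471430-11554071 and Pdk4 at chr6:5483351-5496278. The authors' label thyAD I had 146 nuclei with 1646902 fragments, thyAD II 140 with 2189613 and Immune 31 with 561387. These labels and the clusters within them may have been made from the same fragments, so differences between them describe the annotation. Pdk4 had 189 fragments in thyAD I and 154 in thyAD II, or 115 (99.0 to 132) and 70.3 (59.7 to 82.4) FPM. Of the 10 members it was the 1 at least 1.5-fold lower in thyAD II, at -0.71 (-1.02 to -0.39), and 0 were higher, beside 8.66% and 12.1% of 27859 genes. Slc2a4 was next, at 103 and 72.6 FPM, -0.51 (-0.83 to -0.19). Clusters within a label gave 122 and 99.5 for Pdk4 in thyAD I and 67.3 and 74.9 in thyAD II, so that both clusters of one label lie above both of the other. The intervals of thyAD I cluster 3 (74.3 to 130) and thyAD II cluster 4 (57.8 to 95.4) overlap. Slc2a4, Pfkfb3 and Pdha1 had the same order of clusters, also with some overlap. For Pdha1 the nearest clusters, thyAD I cluster 3 and thyAD II cluster 4, were at 38.3 and 38.0 FPM. Slc2a1 and Hk1 had the reverse order, with both thyAD II clusters above both thyAD I clusters, also with overlap. The share of all genes with either order was not counted. Slc2a4 had 94.3 and 122 against 73.4 and 71.4, and its fullest 500 bp stretch, chr11:69948286-69948785, lies just outside the gene body with 64 against 48 fragments. Hk2, which was low in Ad IIa RNA of the males, was at 197 (176 to 220) and 215 (196 to 235) FPM and did not show the order of Pdk4. Pfkfb3 was at 394 and 349, or -0.18 (-0.33 to -0.02), which turned to 0.18 when 1 kb on either side of the gene ends was counted instead. The males' labels and these labels stand in separate tables, and no mapping between them was made.

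Against thyAD I, Immune nuclei had Hk1 at least 1.5-fold higher, at 92.6 against 36.4 FPM, 1.35 (0.78 to 1.91), and Slc2a4, Pfkfb3 and Pdk4 at least 1.5-fold lower, beside 18.7% and 20.5% of 24618 genes. Pfkfb3 was at -0.90 (-1.20 to -0.62), Slc2a4 at -0.84 (-1.45 to -0.31) and Pdk4 at -0.71 (-1.26 to -0.22). Other genes overlap some of these windows, among them Hk1os for Hk1, Pitrm1 for Pfkp and Map3k15 for Pdha1. Ybx2 reaches into the flank of the Slc2a4 window at the other end from its fullest stretch, and none overlaps those of Hk2 and Pdk4.

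**Figure D4:**
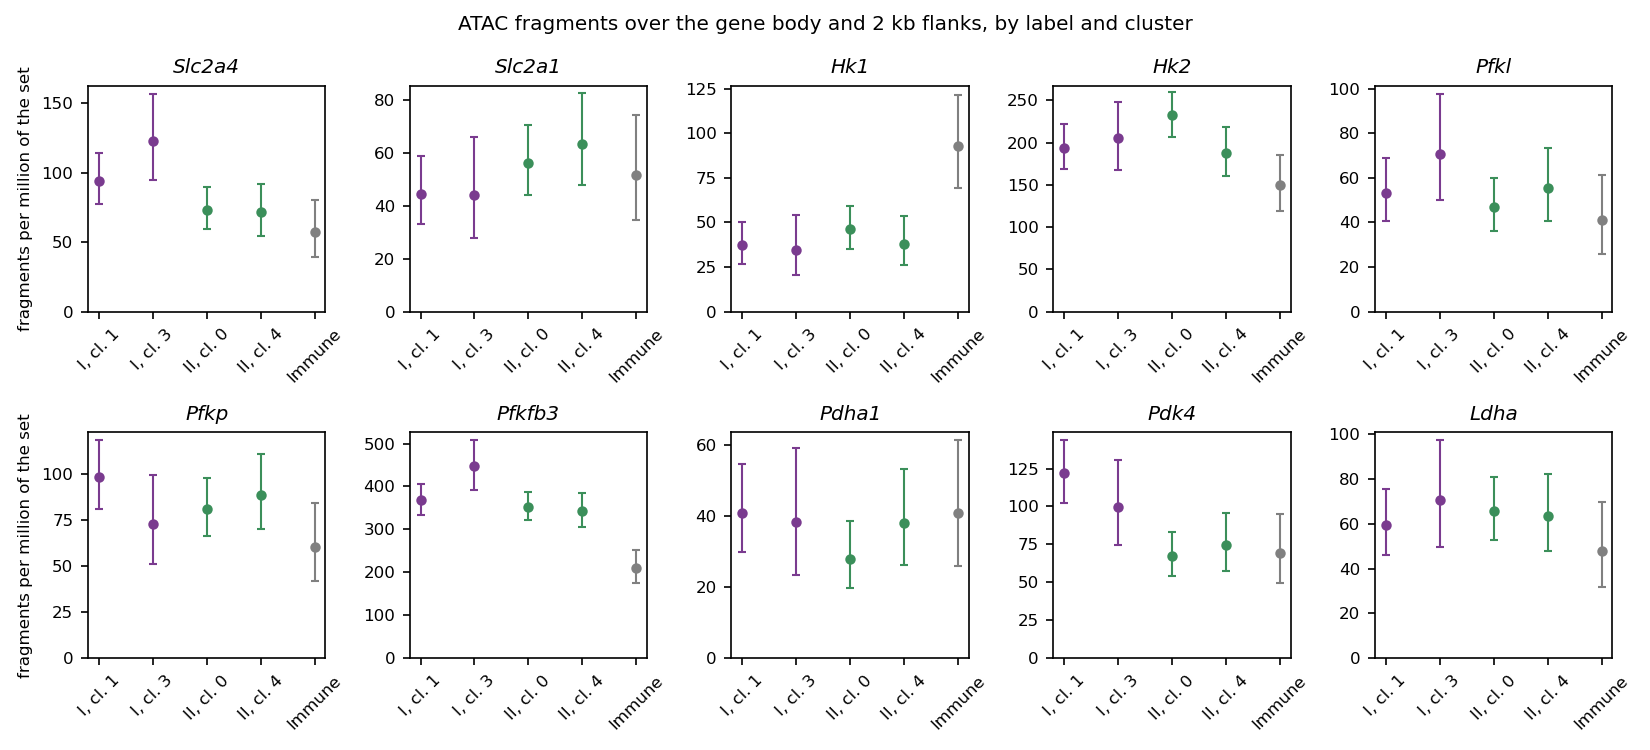
ATAC fragments (FPM) over each gene's window, by label and the authors' cluster (cl.), in the 6-month female thymic library, with 95% Poisson intervals. Both thyAD I clusters lie above both thyAD II clusters for Pdk4, Slc2a4, Pfkfb3 and Pdha1, with some overlap of cluster intervals in each. Both lie below them for Slc2a1 and Hk1, also with overlap. Hk1 is highest in Immune nuclei at 92.6.

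Of the fragments in the Pdk4 window, 63.8% lay within 500 bp of its start. The shares near a listed start were alike for Slc2a1 (62.9%), Pfkl (63.8%), Pdha1 (64.7%) and Ldha (51.6%). They were lower for Hk1 (29.2%), Pfkp (20.1%), Hk2 (19.7%) and Pfkfb3 (13.2%), whose windows are longer, so the share is not compared between genes. Within 500 bp of its start Pdk4 had 115 fragments in thyAD I, 104 in thyAD II and 24 in Immune nuclei, a ratio of thyAD II over thyAD I of -0.56 (-0.95 to -0.16). For Hk2 these were 65, 92 and 21, or 39.5, 42.0 and 37.4 FPM. Hk1 has 2 listed starts, and the outer one held 1 fragment in all 3 sets together, while the inner one held 15, 29 and 20, or 9.11, 13.2 and 35.6 FPM. Of the listed starts of Pfkfb3, the inner one held 51 and 84 fragments and the outer one 17 and 35 in thyAD I and thyAD II. These were 31.0 and 38.4 FPM at the inner and 10.3 and 16.0 FPM at the outer start. The ratios of thyAD II over thyAD I were 0.30 (-0.21 to 0.84) and 0.61 (-0.24 to 1.56), with intervals that hold 0. Over the whole Pfkfb3 window the ratio was -0.18.

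**Figure D5:**
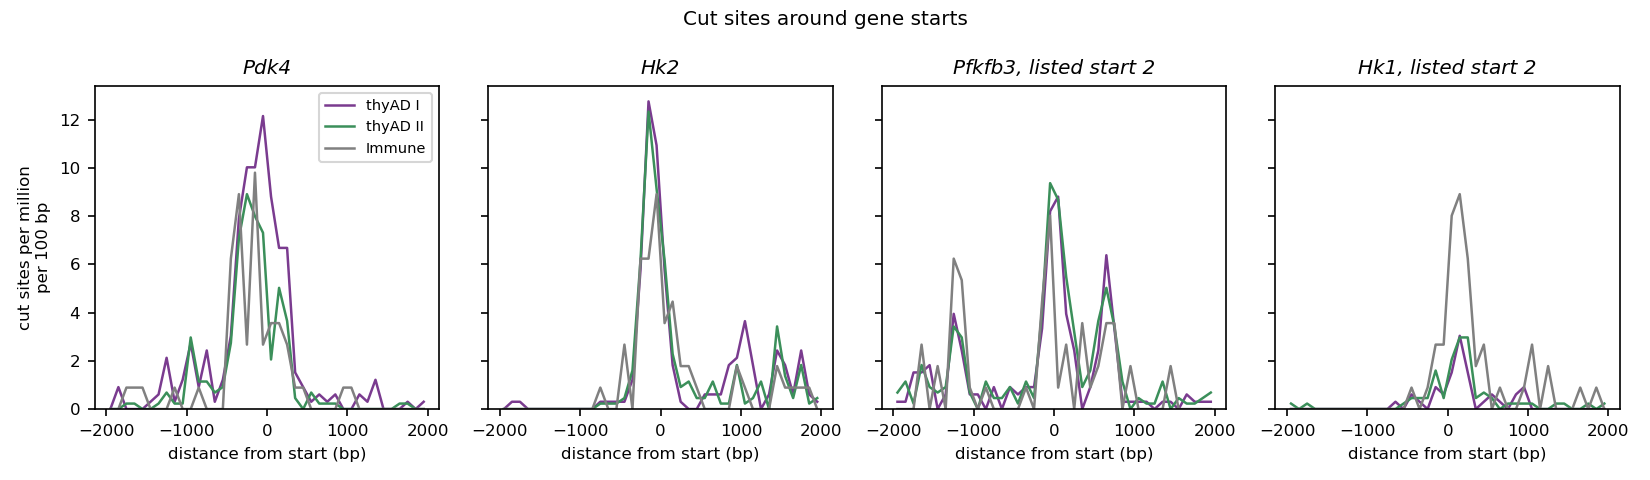
Transposase cut sites per 1000000 cut sites of the set in 100 bp bins, by distance from the listed start, for Pdk4, Hk2, the inner start of Pfkfb3 and the inner start of Hk1. At Pdk4 the fullest bin of thyAD I holds 12.1 against 8.91 in thyAD II, and at Hk2 12.8 and 12.3.

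The 250 bases before 5 of these starts follow, 5′ to 3′ on the gene's strand, from RefSeq on GRCm38.p6, since the fragments above are counted around them: a start whose interval for thyAD II over thyAD I leaves out 0 (Pdk4), one whose interval holds 0 (Hk2), the fuller start of Pfkfb3, and an empty and an open start of one gene (Hk1). Of the 10 genes 9 have a listed start, 12 starts in all, and Slc2a4 has none. Capitals mark matches, on either strand, to the motifs searched, which were the E-box CACGTG, the ERR element TCAAGGTCA and the nuclear receptor element AGGTCA that lies inside it, the forkhead element GTAAACA, the GC box GGGCGG and the TATA box TATAAA.
Pdk4 (chr6:5496279-5496528, minus strand): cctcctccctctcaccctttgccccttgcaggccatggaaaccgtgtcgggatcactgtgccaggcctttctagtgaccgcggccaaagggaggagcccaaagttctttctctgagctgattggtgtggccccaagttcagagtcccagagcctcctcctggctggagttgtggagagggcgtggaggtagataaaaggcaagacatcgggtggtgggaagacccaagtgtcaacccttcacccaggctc
Hk2 (chr6:82774455-82774704, minus strand): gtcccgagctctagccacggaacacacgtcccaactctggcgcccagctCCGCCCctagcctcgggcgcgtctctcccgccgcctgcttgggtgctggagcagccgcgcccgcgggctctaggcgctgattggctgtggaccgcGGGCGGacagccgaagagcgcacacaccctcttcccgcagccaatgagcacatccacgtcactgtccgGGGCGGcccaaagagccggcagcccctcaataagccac
Pfkfb3 inner start (chr2:11502091-11502340, minus strand): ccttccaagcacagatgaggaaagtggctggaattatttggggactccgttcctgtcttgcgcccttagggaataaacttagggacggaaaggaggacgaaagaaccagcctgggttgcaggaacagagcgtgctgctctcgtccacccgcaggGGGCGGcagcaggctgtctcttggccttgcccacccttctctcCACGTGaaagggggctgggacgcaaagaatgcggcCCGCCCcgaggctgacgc
Hk1 outer start (chr10:62379909-62380158, minus strand): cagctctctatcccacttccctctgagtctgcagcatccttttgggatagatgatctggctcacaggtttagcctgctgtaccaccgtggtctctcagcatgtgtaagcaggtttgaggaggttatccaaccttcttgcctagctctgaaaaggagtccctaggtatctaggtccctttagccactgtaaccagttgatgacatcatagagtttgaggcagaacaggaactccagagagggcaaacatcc
Hk1 inner start (chr10:62340422-62340671, minus strand): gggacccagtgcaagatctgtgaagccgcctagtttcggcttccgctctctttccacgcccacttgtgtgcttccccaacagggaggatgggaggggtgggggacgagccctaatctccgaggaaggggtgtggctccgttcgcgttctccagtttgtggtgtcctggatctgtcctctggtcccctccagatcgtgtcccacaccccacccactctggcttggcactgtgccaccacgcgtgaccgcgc

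The motifs were counted over the whole windows of the table, which run 50 bases past the start. The GC box was in 7 of the 12 windows, against 35.7% of all 32851, with 3 matches before the start of Hk2 and 2 before the inner start of Pfkfb3. The E-box was in 2, the inner window of Pfkfb3 and 1 of Ldha, against 7.15% of all. A TATA box was in 1, that of Slc2a1, against 13.6%. The ERR element, the forkhead element and the nuclear receptor element were in 0 of the 12, against 0.423%, 3.65% and 16.3%. Neither the Pdk4 window nor either Hk1 window held any of the motifs, which says only that these letters are not in these windows. The Pdk4 window was 60.7% G and C, that of Hk2 67.3%, and the windows of Hk1 51.3% at the empty start and 63.3% at the open one, against a median of 52.7% over all windows.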

How the data were processed

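The deposited RNA matrices hold unnormalized UMI counts, from cellranger 7.2.0 per the file headers, whose build and use of introns the sources used here do not give. Labels, nucleus counts and the percent of mitochondrial UMIs were deposited by the authors, as was the ratio of enrichment at gene starts for the 6-month nuclei. ATAC fragment counts were made with cellranger-arc 2.0.2 on GRCm38, per the file headers. The submitters' processing notes also name Seurat 5.1.0. The copy of the 6-month label table used here held 317 complete rows, with 4397902 of 101060606 fragments, and the paired RNA matrix was left aside.

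Sums of UMIs over the nuclei of a label were scaled by their nuclear-encoded UMIs. Log2 ratios had 0.5 UMI added, with exact binomial intervals at 95%. A ratio needed 10 UMIs (or fragments) over both sides and was counted from 2-fold (fragments 1.5-fold). Shares were also taken at 500 UMIs per nucleus. The authors class every labelled nucleus as a singlet, and no doublet caller was run here. Calculations were tested on simulated data. Alternatives included TMM scaling with edgeR 4.0.16.

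The members, lists and rules were chosen with earlier results of these data known. Named genes were the 10 members, the 2 highest and 2 lowest of each list and comparison with at least 10 UMIs, and the 3 genes (at least 200 labelled UMIs) most like each member with at least 50. Only some of those are printed, and 1 gene like Hk2 is not reported here.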

Additional observations from a re-analysis of the deposited data

Results flagged for a closer look

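Slc2a4 and Pdk4 differed between the libraries in opposite directions by label, with intervals of counting error that lie on opposite sides of 0. Slc2a4 was at 2.0 on the log2 scale, thymic over epigonadal, in Ad I and at -3.80 in Ad IIa, where the thymic library had 0 UMIs and the value depends on the 0.5 UMI added. Pdk4 was at 2.05 in Ad I and at -2.52 in Ad IIa, where it had 1 thymic UMI. With 5 UMIs added, both were less than 2-fold apart in Ad IIa, Slc2a4 at -0.75 and Pdk4 at -0.75. The difference between the labels was not tested, since each library is 1 sample.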

How the results depend on the processing

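Counts are of members past the fold. Over the alternatives, 413 of 426 RNA values of single members and 48 of 50 chromatin values stayed inside the counting interval of the main value without a value at least 2-fold apart turning, and 10 and 2 moved outside it. These counts include settings that change only the minimum of UMIs or fragments, under which a value cannot change. Many of the intervals are also wide, so staying inside one says little of a value's stability. In Ad I the 3 members became 1 with nuclei of at least 1000 UMIs and 1 with a minimum of 20 UMIs, and in Ad IIa the 5 became 3 with 5 UMIs added. Ad IIa over Ad I in the thymic library went from 6 to 2 with nuclei of at least 1000 UMIs (9 in Ad I) and to 3 with at least 20 UMIs. Ad Ib over Ad Ia in the thymic library went from 2 to 1 under each of those settings and to 4 with no minimum. In the epigonadal library it went from 1 to 2 with median-of-ratios scaling, to 0 without Gm42418, AY036118 and Malat1 in the scaling, with nuclei of at least 1000 UMIs and with 5 UMIs added, to 4 with no minimum, and to 2 with the profile of all unlabelled barcodes subtracted. The chromatin count went from 1 to 2 with windows of 1 kb on either side of both gene ends. Of values at least 2-fold apart, 3 turned: Slc2a4 over all labelled nuclei to 0.26 with equal weight per nucleus, Pfkp in thymic Ad IIa over Ad I to 0.23 with nuclei of at least 1000 UMIs, and Pfkl in epigonadal Ad IIa over Ad I to -0.0068 with 5 UMIs added; the cause was not tested. The subtraction planned with barcodes of at most 200 UMIs was not run, since the lowest barcode held 230 UMIs (thymic) or 500 (epigonadal); the one named above was chosen after seeing the data. No paired analysis was possible because each group is 1 library. Depth limits the thymic Ad I labels, where 3 counts are 57.4 CPM in Ad I, 108 in Ad Ia and 122 in Ad Ib.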
